A study of Mus musculus with 15 samples.

Results

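Cd207, Csf1r, Il34, Csf1, Epcam, Mfge8, Laptm5 and Aif1 were followed as markers of Langerhans cells and as parts of the Csf1r ligand axis. They are 8 listed genes of the 36528 in the count files, and all 8 were among the 17282 genes with enough reads to be tested. They were measured in laser-captured nests of mouse basal cell carcinoma, a skin tumour driven by Hedgehog signalling, with 5 libraries of polyadenylated RNA in each of 3 groups. The first group was nests of mice given vismodegib, a Smoothened inhibitor, and the study's design text gives 28 days of treatment. The second was control nests negative for the proliferation antigen Ki67, and the third control nests positive for it. The mice of all 3 groups carried K14Cre-ER, the floxed alleles Ptch1fl/fl and p53fl/fl, and Lgr5GFP. The keratin 14 promoter drives Cre in basal epithelial cells and not in blood cells, to which Langerhans cells belong. No label gives the age of the mice or ties a library to an animal, and the vismodegib nests carry no Ki67 label.

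Langerhans cells are the resident antigen-presenting cells of the epidermis, where they sit between keratinocytes. Their lectin langerin, encoded by Cd207, takes up glycans and builds Birbeck granules. Csf1r is the receptor tyrosine kinase on which macrophages and Langerhans cells depend for survival, and it has a pair of ligands with little sequence in common. Interleukin 34, made by keratinocytes and neurons, maintains Langerhans cells in the healthy epidermis, whereas Csf1, made by stromal, epithelial and immune cells, serves macrophages in most tissues and takes part in repopulation after inflammation.

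Cd207 lies on chromosome 6 (83671207 to 83677857), Il34 on chromosome 8 (110741829 to 110805949) and Csf1 on chromosome 3 (107741048 to 107760469) of build GRCm38. Epcam (87635979 to 87651127) and Aif1 (35170986 to 35176083) lie on chromosome 17, Mfge8 on chromosome 7 (79133768 to 79149060) and Laptm5 on chromosome 4 (130912890 to 130936148). The promoters shown are those of Cd207, the member with the widest difference between the groups, and of Csf1, the ligand gene that passed the test against Ki67-positive nests and not against Ki67-negative nests. Each is the 250 bases before the annotated start site in RefSeq on GRCm38.p6, read 5′ to 3′ on the minus strand, at chr6:83677858-83678107 for Cd207 and chr3:107760470-107760719 for Csf1. Capitals mark a match to the AP-1 motif TGANTCA.
Cd207: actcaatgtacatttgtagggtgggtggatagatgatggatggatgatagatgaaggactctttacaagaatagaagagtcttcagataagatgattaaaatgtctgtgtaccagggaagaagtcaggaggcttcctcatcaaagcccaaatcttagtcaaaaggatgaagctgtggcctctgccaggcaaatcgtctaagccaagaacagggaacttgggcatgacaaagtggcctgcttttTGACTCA
Csf1: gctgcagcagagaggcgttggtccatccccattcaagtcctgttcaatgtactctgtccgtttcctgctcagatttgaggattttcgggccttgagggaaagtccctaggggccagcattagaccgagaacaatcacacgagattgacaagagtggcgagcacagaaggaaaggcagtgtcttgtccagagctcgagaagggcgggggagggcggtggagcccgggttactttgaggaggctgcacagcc
The AP-1 motif, searched on both strands, was found in 6.75% of 32817 promoters and in 1 of the 6 member promoters searched, that of Cd207, at bases -7 to -1 before the start. The Runx motif TGTGGT was found in 14.0% of promoters and among the members in that of Mfge8 (bases -76 to -71). The PU.1 motif GAGGAAGT (2.44% of promoters) and the Gli motif GACCACCCA (0.225%) had no match in these 6 windows. No match overlapped another, and a match describes these letters only.

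Levels are given as CPM, read counts scaled to the size of each library. After vismodegib, Cd207, the receptor gene Csf1r and the ligand gene Il34 were higher than in either untreated group, with every vismodegib library above every untreated library for all 3 genes. Of all tested genes, 7.06% separated upward in this way from both untreated groups, 10.2% from Ki67-positive nests and 10.4% from Ki67-negative nests. The other ligand gene, Csf1, was higher than in Ki67-positive nests but not distinguishable from Ki67-negative nests. The Csf1 call was near the threshold (edgeR adjusted p = 0.0475) and held in 10 of 22 alternative analyses. Epcam and Mfge8, which epithelium also expresses, and the leukocyte genes Laptm5 and Aif1 did not pass the test in either comparison. Of the 8 genes, 4 rose and 0 fell against Ki67-positive nests, where 12.6% of all tested genes rose and 13.4% fell (edgeR quasi-likelihood test, Benjamini-Hochberg adjusted p under 0.05 over all tested genes). Against Ki67-negative nests 3 rose and 0 fell, where 15.4% of all tested genes rose and 16.5% fell. The median log2 fold change of the 8 genes was 1.16 against Ki67-positive nests and 0.70 against Ki67-negative nests, beside -0.02 and -0.03 over all tested genes. Both comparisons use the same 5 vismodegib libraries.

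**Figure D1:**
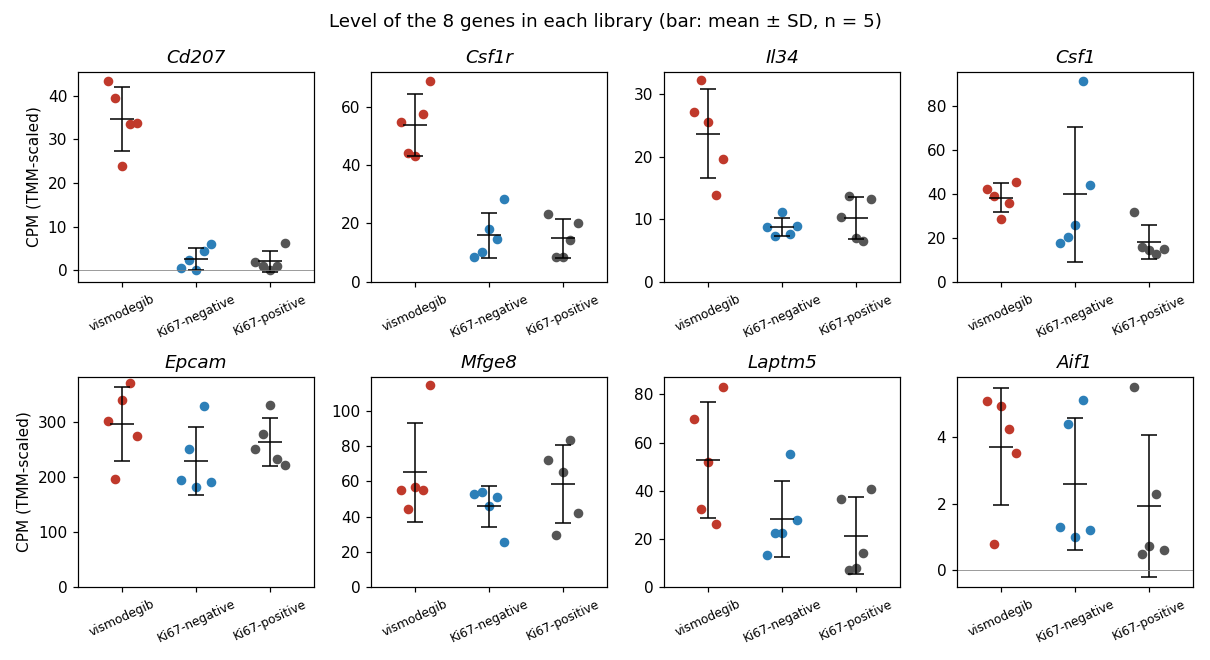
Level of each of the 8 genes in CPM (vertical axis, linear) for the 5 libraries of each group, with black bars for the mean ± SD. The vismodegib libraries lie above all untreated libraries for Cd207, Csf1r and Il34, a separation found for 7.06% of all tested genes, while the groups overlap for the other 5 genes.

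Langerin was the gene that differed most. Cd207 reached 43.3, 39.4, 23.9, 33.5 and 33.8 CPM in vismodegib libraries 1 to 5, against 0.484, 2.27, 0, 4.38 and 5.98 CPM in the Ki67-negative libraries and 1.84, 0.965, 0.119, 1.03 and 6.27 CPM in the Ki67-positive libraries. All treated libraries were thus high, and the untreated ones were low throughout. In reads, Cd207 had 241 to 281 per vismodegib library, 0 to 40 per Ki67-negative library and 1 to 31 per Ki67-positive library. The Ki67-negative library without a read had a depth at which 3 reads equal 0.606 CPM, the limit that a count of 0 allows there for counting error. Mean levels were 34.8 ± 7.35 CPM after vismodegib, 2.62 ± 2.55 CPM in Ki67-negative nests and 2.04 ± 2.44 CPM in Ki67-positive nests (SD, n = 5 each). The rise was 18.1-fold over Ki67-positive nests (log2 fold change 4.18 with SE 0.786, edgeR adjusted p = 0.000975) and 12.9-fold over Ki67-negative nests (log2 fold change 3.69 with SE 0.756, edgeR adjusted p = 0.00171). In nests taken whole, more Langerhans cells and more Cd207 RNA per cell cannot be told apart, and the same holds for every leukocyte gene below.

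The receptor followed the same order of groups at a smaller ratio. The gene lies on chromosome 18 (61105572 to 61131139). Csf1r was 55.0, 44.4, 43.1, 57.7 and 69.1 CPM in the vismodegib libraries, against 8.55, 10.2, 18.0, 14.5 and 28.3 CPM in the Ki67-negative and 23.2, 8.36, 8.44, 14.2 and 20 CPM in the Ki67-positive libraries. The lowest treated library (43.1 CPM) stood above the highest untreated one (28.3 CPM), but Csf1r, unlike Cd207, had at least 52 reads in every untreated library. Its mean was 53.9 ± 10.6 CPM after vismodegib, 15.9 ± 7.84 CPM in Ki67-negative nests and 14.8 ± 6.71 CPM in Ki67-positive nests (SD, n = 5 each). It rose 3.65-fold over Ki67-positive nests (log2 fold change 1.87 with SE 0.328, edgeR adjusted p = 0.000362) and 3.39-fold over Ki67-negative nests (1.76, SE 0.327, edgeR adjusted p = 0.000536). Per length, on the scale of the deposited RPKM, Cd207 averaged 6.22 after vismodegib, above Csf1r at 3.42, whereas in Ki67-negative nests Cd207 averaged 0.477 and Csf1r 1.03, and in Ki67-positive nests 0.372 and 0.953. In each of the 5 vismodegib libraries Cd207 had the higher RPKM of this pair, and in each of the 10 untreated libraries Csf1r had it.

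Il34, the keratinocyte ligand, was 27.1, 32.3, 25.5, 13.9 and 19.6 CPM in the vismodegib libraries. In the Ki67-negative libraries it was 8.71, 7.37, 11.1, 7.70 and 8.98 CPM, and in the Ki67-positive libraries 10.3, 13.7, 7.01, 6.51 and 13.3 CPM. The groups did not overlap, but the gap was narrow: vismodegib library 4 (13.9 CPM) was just above Ki67-positive library 2 (13.7 CPM). Il34 averaged 23.7 ± 7.10 CPM after vismodegib, 8.77 ± 1.47 CPM in Ki67-negative nests and 10.2 ± 3.38 CPM in Ki67-positive nests (SD, n = 5 each). It rose 2.34-fold over Ki67-positive nests (log2 fold change 1.23 with SE 0.267, edgeR adjusted p = 0.00223) and 2.70-fold over Ki67-negative nests (1.43, SE 0.270, edgeR adjusted p = 0.000592). Il34 overlaps the noncoding genes Gm15895 and Gm15894, and without a stated strand setting their reads cannot be told apart from its own. Gm15895 was at 27.2 to 35.1 CPM after vismodegib, 23.6 to 31.4 CPM in Ki67-negative nests and 23.3 to 39.0 CPM in Ki67-positive nests, and its log2 fold changes were 0.20 and 0.03 (edgeR adjusted p = 0.374 against Ki67-negative and 0.915 against Ki67-positive nests). Gm15894 was at 1.70 to 21.0, 1.84 to 5.68 and 0.921 to 7.28 CPM in those groups, with log2 fold changes of 1.36 and 1.49 (edgeR adjusted p = 0.116 and 0.100).

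Csf1, the ligand gene of wider expression, was 42.1, 39.1, 28.3, 35.9 and 45.4 CPM in the vismodegib libraries. It was 17.4, 20.3, 25.6, 91.2 and 43.7 CPM in the Ki67-negative libraries, and 31.6, 15.8, 14.5, 12.7 and 14.8 CPM in the Ki67-positive libraries. Ki67-negative library 4 held the highest value of all, and the vismodegib range lay inside the Ki67-negative range. Means were 38.1 ± 6.55 CPM after vismodegib, 39.6 ± 30.6 CPM in Ki67-negative nests and 17.9 ± 7.78 CPM in Ki67-positive nests (SD, n = 5 each). Against Ki67-positive nests Csf1 rose 2.14-fold (log2 fold change 1.09 with SE 0.389, edgeR adjusted p = 0.0475), higher in 4 of 5 vismodegib libraries than in any Ki67-positive one. That call held in 10 of 22 alternatives, and over all 22 the edgeR, DESeq2 or limma adjusted p ranged from 0.00426 to 0.106. It was lost without any single vismodegib library (0.0502 to 0.0916), without Ki67-positive library 2, 3, 4 or 5 (0.0953 to 0.106), without Ki67-negative library 5 (0.0559), with no filter on low counts (0.0852) and with a covariate for Xist-expressing libraries (0.0644). Against Ki67-negative nests the log2 fold change was -0.06 (95% interval -0.89 to 0.77, edgeR adjusted p = 0.925), and without Ki67-negative library 4 it was 0.51 (adjusted p = 0.195).

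Among untreated libraries, those with the highest Csf1 also had the most S100a8, a gene picked after its values were seen. S100a8, which encodes a calcium-binding protein abundant in neutrophils and in wounded epidermis, was 948.6 CPM in Ki67-negative library 4 and 277.8 CPM in Ki67-negative library 5, against 11.8 to 21.1 CPM in the other 3 Ki67-negative libraries. In Ki67-positive library 1, which had the highest Csf1 of its group, S100a8 was 532.7 CPM, against 10.7 to 26.5 CPM in the other 4. The vismodegib libraries did not share this order: library 2 had the lowest S100a8 of its group (27.2 CPM) with a Csf1 of 39.1 CPM, and library 3 had 266.9 CPM of S100a8 with the lowest Csf1 (28.3 CPM). The summed level of the 10 mast cell and neutrophil genes was 98.8 to 655.8 CPM across vismodegib libraries, 138.3 to 2950.6 CPM in the Ki67-negative and 50 to 1512.8 CPM in the Ki67-positive libraries. Of the 9 tested genes of that list 0 passed against Ki67-positive nests, and 1, Csf3r, fell against Ki67-negative nests. The neutrophil marker Ly6g had too few reads to be tested. It had none in any Ki67-positive library and at most 0.122 CPM in vismodegib and 0.151 CPM in Ki67-negative libraries. Cd14, the myeloid endotoxin co-receptor gene, was 161.6 CPM in Ki67-negative library 4 and 0.949 to 8.89 CPM in the 14 others. Whether mast cells or neutrophils had a part in the Csf1 level was not tested.

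**Figure D2:**
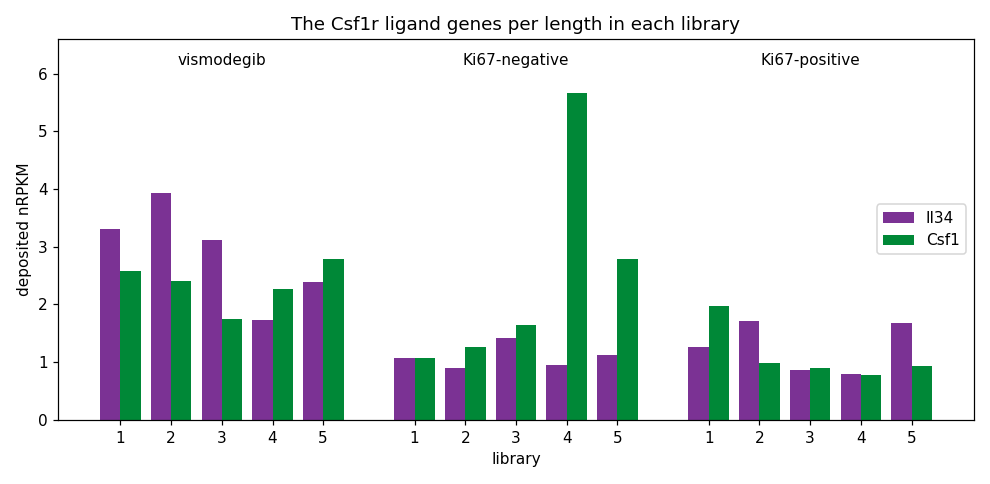
Deposited RPKM of the ligand genes Il34 and Csf1 (bars from 0) in each of the 15 libraries, by group. Il34 was above Csf1 in vismodegib libraries 1, 2 and 3 and in 3 of 5 Ki67-positive libraries, and below it in all 5 Ki67-negative libraries. Csf1 peaked at 5.66 in Ki67-negative library 4.

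On a scale per length the ligand genes could be set beside each other. The ratio of Il34 to Csf1 RPKM was 1.28, 1.64, 1.79, 0.767 and 0.858 in the vismodegib libraries. It was 0.992, 0.722, 0.860, 0.168 and 0.408 in the Ki67-negative libraries and 0.646, 1.72, 0.960, 1.02 and 1.79 in the Ki67-positive libraries. Il34 thus exceeded Csf1 in 3 of 5 vismodegib, 0 of 5 Ki67-negative and 3 of 5 Ki67-positive libraries, and the ratios overlapped between all 3 groups. The sum of the ligand RPKM values was 3.99 to 6.33 after vismodegib, 2.15 to 6.6 in Ki67-negative and 1.59 to 3.24 in Ki67-positive nests, so it separated vismodegib from Ki67-positive nests alone.

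Epcam encodes a cell adhesion molecule that Langerhans cells carry and that epithelial tumour cells also express. It was 302.6, 196.9, 340.7, 372.2 and 275.3 CPM in the vismodegib libraries, 194.2, 251.6, 182.4, 329.4 and 190.7 CPM in the Ki67-negative libraries and 251.4, 279.4, 332.5, 233.8 and 221.7 CPM in the Ki67-positive libraries. The 3 ranges overlapped. Its log2 fold change was 0.17 against Ki67-positive nests (95% interval -0.23 to 0.58, edgeR adjusted p = 0.535) and 0.37 against Ki67-negative nests (-0.03 to 0.78, edgeR adjusted p = 0.135). The comparison with Ki67-negative nests passed without vismodegib library 2 (0.49, adjusted p = 0.0419) or Ki67-negative library 4 (0.54, adjusted p = 0.0244). Per length Epcam was the highest of the 8 genes in every group, at a mean RPKM of 39.6 after vismodegib, 30.9 in Ki67-negative and 35.4 in Ki67-positive nests.

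Mfge8 encodes a secreted bridge between phosphatidylserine on dying cells and integrins on the cells that engulf them. It was 54.9, 44.0, 56.6, 55.1 and 114.8 CPM in the vismodegib libraries, with library 5 apart from the rest. The untreated libraries lay between 25.6 and 53.8 CPM when Ki67-negative and between 29.4 and 83.6 CPM when Ki67-positive. The log2 fold change was 0.15 against Ki67-positive nests (95% interval -0.49 to 0.79, edgeR adjusted p = 0.749) and 0.51 against Ki67-negative nests (-0.14 to 1.15, edgeR adjusted p = 0.204). Without vismodegib library 5 the first of these was -0.15, and with the Xist covariate the second was 0.80 and passed (adjusted p = 0.0231).

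The leukocyte genes overlapped between the groups. Laptm5, a lysosomal membrane protein gene of blood cells, was 69.8, 32.4, 51.8, 26.3 and 83.3 CPM in the vismodegib libraries, against 13.2, 22.2, 22.6, 55.1 and 27.7 CPM in the Ki67-negative and 36.4, 7.07, 7.96, 14.1 and 40.5 CPM in the Ki67-positive libraries. Every vismodegib library exceeded the median of each untreated group, yet the ranges overlapped. Its log2 fold change was 1.33 (SE 0.514, edgeR adjusted p = 0.0703) against Ki67-positive nests and 0.90 (SE 0.507, edgeR adjusted p = 0.190) against Ki67-negative nests. The first passed with DESeq2 (1.34, adjusted p = 0.0169), with limma voom (1.64, 0.0137) and without Ki67-positive library 1 (1.62, 0.0412) or 5 (1.69, 0.0305). Aif1, which encodes the macrophage protein Iba1, was the lowest of the 8 genes in vismodegib nests per length, with 5 to 50 reads per vismodegib library, 5 to 34 per Ki67-negative library and 3 to 36 per Ki67-positive library. It averaged 3.72 ± 1.75, 2.6 ± 1.99 and 1.92 ± 2.14 CPM in vismodegib, Ki67-negative and Ki67-positive nests (SD, n = 5 each), with log2 fold changes of 0.94 against Ki67-positive (edgeR adjusted p = 0.334) and 0.51 against Ki67-negative nests (edgeR adjusted p = 0.597).

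**Figure D3:**
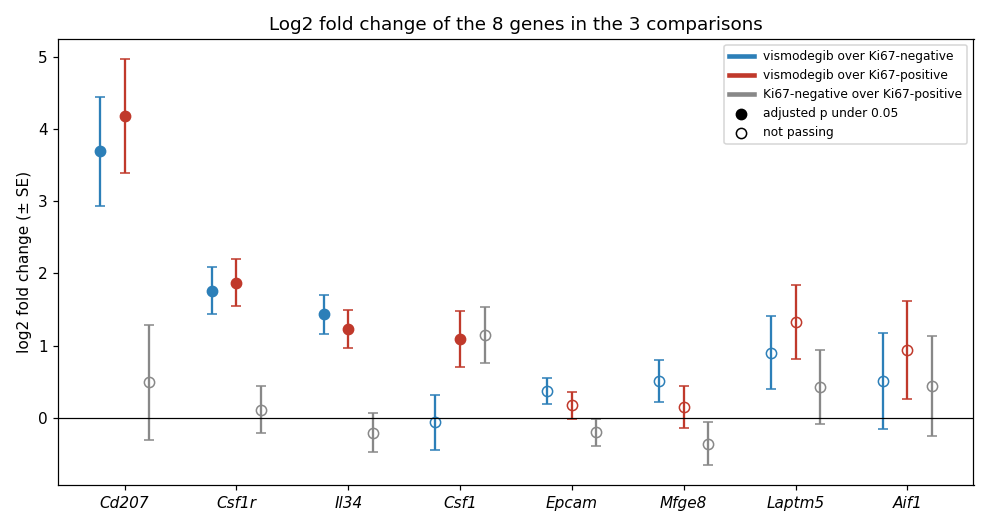
Log2 fold change (vertical axis, bars ± SE) of the 8 genes in vismodegib over Ki67-negative, vismodegib over Ki67-positive and Ki67-negative over Ki67-positive nests; filled points passed an edgeR adjusted p under 0.05. Cd207 reached 3.69 and 4.18 after vismodegib, and no gene passed between the untreated groups.

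Between the untreated groups, Ki67-negative over Ki67-positive, 0 of the 8 genes passed by edgeR's quasi-likelihood test, DESeq2 or limma voom, and 1, Csf1, had an unadjusted p under 0.05. Of all tested genes 0% rose and 0.174% fell in that comparison. Csf1 was 39.6 ± 30.6 CPM in Ki67-negative and 17.9 ± 7.78 CPM in Ki67-positive nests (SD, n = 5 each). The log2 fold change was 1.15 (SE 0.390, edgeR adjusted p = 0.587, unadjusted p = 0.00893). This contrast is also the test of whether the vismodegib effect on Csf1 differs with the untreated group chosen, since the treated libraries are shared. For Cd207 the log2 fold change was 0.49 (95% interval -1.24 to 2.22), for Csf1r 0.11 (-0.61 to 0.82) and for Il34 -0.21 (-0.80 to 0.38), so that differences within these intervals are not excluded.

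Other genes of Langerhans cells rose with Cd207, though not all. Of 12 tested Langerhans cell identity genes, Cd207 included, 6 rose and 1 fell against Ki67-positive nests and 5 rose and 1 fell against Ki67-negative nests (median log2 fold change 1.21 and 1.30). Over all tested genes, 12.6% rose and 13.4% fell against Ki67-positive nests, and 15.4% rose and 16.5% fell against Ki67-negative nests. The count of every gene list is to be read beside these shares. Ahr, the aryl hydrocarbon receptor gene, which keratinocytes also express, was 442.2 ± 90.6 CPM after vismodegib, 50.6 ± 17.0 CPM in Ki67-negative and 56.0 ± 19.9 CPM in Ki67-positive nests (changes on the log2 scale of 3.12 and 2.98, edgeR adjusted p = 1.71e-07 and 2.65e-07). Cd86, a costimulatory ligand gene, was 12.0 ± 3.15, 3 ± 2.31 and 2 ± 2.25 CPM in the same order of groups (1.99 and 2.59, edgeR adjusted p = 0.0110 and 0.00252). Ly75, which encodes the endocytic receptor DEC-205, was 13.8 ± 5.34, 4.68 ± 1.57 and 5.36 ± 3.54 CPM (1.56 and 1.36, edgeR adjusted p = 0.00662 and 0.0169). Fscn1, the actin-bundling gene of mature dendritic cells, which tumour epithelium can also express, fell to 6.08 ± 2.61 CPM after vismodegib, against 20.2 ± 4.45 CPM in Ki67-negative and 29.4 ± 9.61 CPM in Ki67-positive nests (-1.71 and -2.26, edgeR adjusted p = 0.000294 and 2.63e-05). Runx3, a transcription factor gene required for Langerhans cells, was 28.2, 21.9 and 25.8 CPM on average and did not pass (edgeR adjusted p = 0.350 and 0.785).

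All 7 tested genes of MHC class II presentation rose in both comparisons, beside 15.4% of all tested genes against Ki67-negative and 12.6% against Ki67-positive nests. The median log2 fold change of the 7 genes was 2.29 in each. The summed level of the list was 697.4 to 2389.8 CPM across vismodegib libraries, 146.3 to 479.4 CPM in the Ki67-negative and 114.9 to 490.7 CPM in the Ki67-positive libraries, with no overlap. Vismodegib library 4 was the lowest treated library for this sum and still above every untreated one, while its Cd207 (33.5 CPM) was near the group median (33.8 CPM). Cd74, the invariant chain gene, was 222.3 CPM in that library and 639.9 to 1140.4 CPM in the other 4. H2-Eb1, a class II beta chain gene named after its values were seen, was 3.52 CPM in that library, below every untreated library (19.0 to 41.8 CPM in Ki67-negative and 21.3 to 48.3 CPM in Ki67-positive nests), and 128.9 to 217.3 CPM in the other 4. H2-Aa, a class II alpha chain gene, did not share this. It was 254.0 CPM in library 4, above vismodegib library 2 (232.4 CPM) and every untreated library (at most 87.2 CPM). The low sum of library 4 thus did not reflect every class II gene.

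Genes of other leukocytes moved less evenly. Of 14 tested macrophage and monocyte genes, 0 rose, and Mertk alone fell against Ki67-positive nests and Mertk and Cd14 against Ki67-negative nests. The shares over all tested genes were 12.6% up and 13.4% down against Ki67-positive nests, and 15.4% up and 16.5% down against Ki67-negative nests. In a list this short such counts lie near those shares. The Cd14 call compares with a group in which library 4 alone was at 161.6 CPM, and it was not tested without that library. Adgre1, which encodes F4/80 and marks macrophages and Langerhans cells of the mouse, was 11.8 ± 3.53, 5.87 ± 2.96 and 5.09 ± 4.13 CPM in vismodegib, Ki67-negative and Ki67-positive nests (changes on the log2 scale of 1.0 and 1.23, edgeR adjusted p = 0.166 and 0.107). The summed macrophage level was 103.7 to 390.2 CPM after vismodegib, 284.8 to 522.8 CPM in Ki67-negative and 191.6 to 363.5 CPM in Ki67-positive nests. Mertk, an engulfment receptor gene of macrophages and of epithelia, fell in both comparisons (log2 fold changes -1.73 and -1.57, edgeR adjusted p = 5.42e-05 and 0.000150). At 52.8 ± 10.4, 175.7 ± 52.6 and 156.9 ± 56.3 CPM in the same order of groups, Mertk made up a large part of the untreated sums. The summed level is therefore not a measure of macrophage content alone. Of 17 genes shared by leukocytes, which include Laptm5 and Aif1, 8 rose against Ki67-positive and 4 against Ki67-negative nests, and 0 fell. Ptprc, which encodes CD45, was 64.9 ± 22.4 CPM after vismodegib, 26.7 ± 16.3 CPM in Ki67-negative and 14.4 ± 8.29 CPM in Ki67-positive nests (1.28 and 2.19, edgeR adjusted p = 0.0299 and 0.00147). Their summed level overlapped, at 322.1 to 620 CPM after vismodegib and 83.7 to 549.3 CPM in Ki67-negative nests, the highest of which was again library 4, and at 54.7 to 269.2 CPM in Ki67-positive nests did not.

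Among 9 tested conventional dendritic cell genes, 3 rose against Ki67-negative and 4 against Ki67-positive nests. Clec9a, a receptor gene of cross-presenting dendritic cells, was 4.16 ± 2.41, 1.01 ± 0.891 and 0.405 ± 0.299 CPM (log2 fold changes 2.01 and 3.26, edgeR adjusted p = 0.0348 and 0.00358). Zbtb46, a transcription factor gene of that lineage which endothelium also expresses, was 21.8 ± 3.69, 28.3 ± 11.7 and 24.0 ± 9.39 CPM and did not pass (edgeR adjusted p = 0.331 and 0.777). Of 11 tested T cell genes, 5 rose and 1 fell against Ki67-negative nests, and 6 rose and 0 fell against Ki67-positive nests. For both lists the shares over all tested genes were 15.4% up and 16.5% down against Ki67-negative nests. Against Ki67-positive nests they were 12.6% up and 13.4% down. Cd3e, a chain of the T cell receptor complex, was 33.9, 25.6, 38.6, 5.23 and 48.5 CPM in vismodegib libraries 1 to 5, against 2.26 to 23.4 CPM in the Ki67-negative and 4 to 10.4 CPM in the Ki67-positive libraries. Vismodegib library 4 thus had a Cd3e level inside the untreated range, whereas its Cd207 was above every untreated library. The summed level of the T cell list was 206.6 CPM in that library, within the vismodegib range of 167.1 to 256.8 CPM. This sum overlapped between the groups, at 142.6 to 244.3 CPM in Ki67-negative and 125.6 to 234.9 CPM in Ki67-positive nests. The T cell gene that fell was Thy1, which fibroblasts also express (edgeR adjusted p = 0.05 after rounding, log2 fold change -0.82). In no group was a listed Langerhans cell, dendritic cell, macrophage, leukocyte or T cell gene without a read in all libraries.

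**Figure D4:**
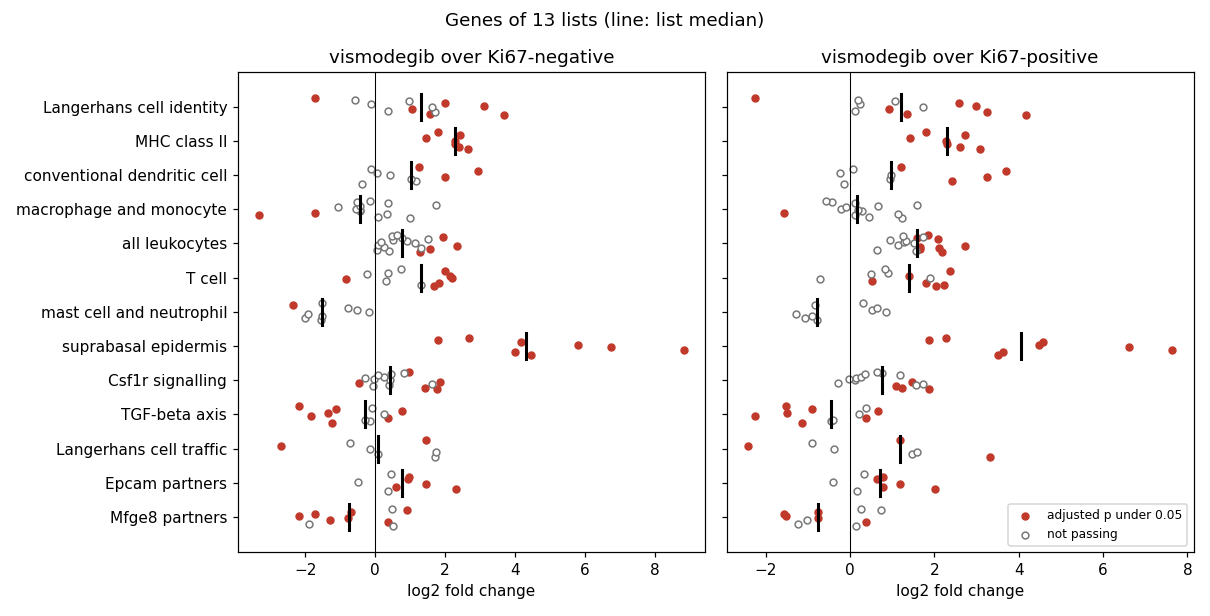
Log2 fold change (horizontal axis) of each tested gene in 13 gene lists for vismodegib over Ki67-negative (left) and over Ki67-positive nests (right); red points passed an edgeR adjusted p under 0.05 and black lines are list medians. The class II and suprabasal lists lie wholly to the right of 0. The macrophage list has 0 genes that rose, beside 15.4% (left) and 12.6% (right) of all tested genes.

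Suprabasal genes of the epidermis, the tissue in which Langerhans cells normally reside, were also higher after vismodegib. All 8 suprabasal genes rose in both comparisons, where 15.4% of all tested genes rose against Ki67-negative and 12.6% against Ki67-positive nests. Their summed level was 3875.1 to 5303.4 CPM across vismodegib libraries, 148.6 to 771.5 CPM in the Ki67-negative and 215.4 to 834.0 CPM in the Ki67-positive libraries. Within the vismodegib group this sum did not follow the order of Cd207. Library 2 had the lowest sum with a Cd207 of 39.4 CPM, and library 3 had 5197.9 CPM with the lowest Cd207 (23.9 CPM). Krt10, a keratin of differentiating epidermis, was 1010.9 ± 136.0, 63.3 ± 35.6 and 82.0 ± 30.8 CPM. Of the 8 keratinocyte and Hedgehog tumour markers 2 rose in both comparisons, and 4 fell against Ki67-negative and 5 against Ki67-positive nests. Krt14, which labels basal keratinocytes, rose to 2607.5 ± 333.8 CPM, against 784.8 ± 214.3 CPM in Ki67-negative and 987.7 ± 258.8 CPM in Ki67-positive nests, and the summed level of that list was 9461.6 to 12561.6, 9243.4 to 10911.8 and 10251.7 to 11312.1 CPM, so that epithelium was abundant in every library. The part of normal or differentiating epidermis in the levels of Cd207, Csf1r and Il34 was not tested. Of 8 fibroblast genes 0 rose, and 3 fell against Ki67-negative and 2 against Ki67-positive nests, where 16.5% and 13.4% of all tested genes fell.

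Of the 15 genes of the Csf1r pathway list, which include the receptor and its ligands, 4 rose and 1 fell against Ki67-negative nests and 4 rose and 0 fell against Ki67-positive nests. Without Csf1r, Il34 and Csf1, 2 of 12 rose against Ki67-negative nests (Cebpa and Sdc1) and 1 of 12 against Ki67-positive nests (Cebpa), near the shares of all tested genes that rose, 15.4% and 12.6%. Cebpa, a transcription factor gene of myeloid cells and of differentiating keratinocytes, was 77.3 ± 13.2 CPM after vismodegib, 21.3 ± 6.51 CPM in Ki67-negative and 28.0 ± 8.88 CPM in Ki67-positive nests (changes on the log2 scale of 1.86 and 1.46, edgeR adjusted p = 2.89e-05 and 0.000269). Sdc1, which encodes syndecan 1, a proteoglycan that binds interleukin 34, was 248.1 ± 84.7, 125.7 ± 43.0 and 160.7 ± 47.7 CPM and passed against Ki67-negative nests (0.98, edgeR adjusted p = 0.0146) but not against Ki67-positive nests (0.63, edgeR adjusted p = 0.115). Ptprz1, a phosphatase gene whose product also binds interleukin 34, was 78.4 ± 34.0, 43.9 ± 8.63 and 46.1 ± 24.2 CPM and did not pass. Runx1, a regulator of Csf1r in myeloid cells that hair follicle epithelium also expresses, was 587.5 ± 106.1, 802.9 ± 144.9 and 716.6 ± 139.8 CPM and fell against Ki67-negative nests (-0.45, edgeR adjusted p = 0.0350).

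TGF-beta, activated by epithelial integrins, keeps Langerhans cells in the epidermis, and more genes of this axis fell than rose. Of 11 tested genes, 5 fell and 2 rose in each comparison. Against Ki67-negative nests 16.5% of all tested genes fell and 15.4% rose, and against Ki67-positive nests 13.4% fell and 12.6% rose. Itgb6, the beta subunit of the TGF-beta activating integrin alphavbeta6, fell to 21.8 ± 5.59 CPM after vismodegib, against 77.9 ± 7.18 CPM in Ki67-negative and 103.1 ± 6.76 CPM in Ki67-positive nests (changes on the log2 scale of -1.84 and -2.24, edgeR adjusted p = 2.74e-07 and 4.64e-08). Itgb8, the subunit of a further activating integrin, was 238.9 ± 85.6, 199.1 ± 41.9 and 204.6 ± 26.0 CPM and did not pass. Tgfb1 fell to 13.7 ± 3.14 CPM, against 32.4 ± 9.19 and 30.2 ± 11 CPM in Ki67-negative and Ki67-positive nests (-1.23 and -1.14, edgeR adjusted p = 0.00250 and 0.00501). The signal transducer gene Smad3, the TGF-beta family ligand gene Bmp7 and the receptor gene Axl also fell. Itgav, the shared alpha subunit, and Smad7, a feedback inhibitor, rose. Axl and Itgav are counted in the Mfge8 list too. Which cells the RNA of these genes came from was not tested.

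Among 7 tested genes of Langerhans cell traffic, 1 rose and 1 fell against Ki67-negative nests, and 2 rose and 1 fell against Ki67-positive nests. Of all tested genes, 15.4% rose and 16.5% fell in the first comparison, and 12.6% rose and 13.4% fell in the second. Ccr2, Ccl2, Cxcl14 and Cxcr4 passed in neither. Cdh1 is the E-cadherin gene through which Langerhans cells adhere to keratinocytes. It rose to 1290.6 ± 133.9 CPM, against 473.2 ± 85.6 CPM in Ki67-negative and 567.1 ± 48.9 CPM in Ki67-positive nests (changes on the log2 scale of 1.45 and 1.19, edgeR adjusted p = 3.48e-07 and 3.32e-06). Cdh1 is also counted in the Epcam list, and the part of Langerhans cells in its level was not tested. Ccr6, a chemokine receptor gene of immature dendritic and Langerhans cell precursors, was 5.01 ± 2.19, 1.5 ± 1.96 and 0.490 ± 0.377 CPM and rose against Ki67-positive nests (3.31, edgeR adjusted p = 0.00640) without passing against Ki67-negative nests (1.71, edgeR adjusted p = 0.0896). Cxcl12, a stromal chemokine gene, fell to 56.7 ± 25.7 CPM, against 365.3 ± 194.5 and 303.7 ± 138.7 CPM in Ki67-negative and Ki67-positive nests (-2.69 and -2.42, edgeR adjusted p = 0.000355 and 0.000845). Ccl19 had no read in any library.

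Genes of the lists drawn up around Epcam and Mfge8 changed although these members did not pass. The Mfge8 list holds, beside integrin subunit genes, engulfment receptor genes such as Axl and Mertk, which encode no integrin. Of the 8 tested genes of the Epcam list, 5 rose and 0 fell in each comparison, among them the protease inhibitor gene Spint2 (146.3 ± 20.4 CPM after vismodegib, 74.3 ± 12.6 and 85.0 ± 23.1 CPM in Ki67-negative and Ki67-positive nests). Of the 10 genes of the Mfge8 list, 5 fell and 2 rose against Ki67-negative nests, and 4 fell and 1 rose against Ki67-positive nests. Beside both lists, 16.5% of all tested genes fell and 15.4% rose against Ki67-negative nests. Against Ki67-positive nests 13.4% fell and 12.6% rose. Axl, a receptor tyrosine kinase gene for engulfment that also serves Langerhans cells, fell to 98.3 ± 20.1 CPM, against 445.0 ± 109.9 CPM in Ki67-negative and 282.8 ± 112.4 CPM in Ki67-positive nests (changes on the log2 scale of -2.18 and -1.52, edgeR adjusted p = 1.11e-05 and 0.000305). Itgb5, an integrin subunit gene for Mfge8 binding, fell as well (-0.79 and -0.75, edgeR adjusted p = 0.00114 and 0.00182).

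Within groups, the genes most like each member were found from log2 CPM with the group mean subtracted, over the 15 libraries and 10683 genes, as a description that shares the depth and composition of each library. For Cd207 they were Aldh3a1, Flt1, Dock2, Inpp5d and Atp6v0b (Pearson's r 0.84 to 0.86). For Csf1r they were Ccdc39, Arhgap15, Slamf7, C3ar1 and Nckap1l (0.85 to 0.89), for Il34 Ppp1r12b, Fchsd1, Cnksr1, Fgf11 and Ccnt1 (0.86 to 0.90), and for Csf1 Pfkp, Nfkbiz, Clec2g, Birc3 and Dusp7 (0.91 to 0.92). No gene was among the 5 closest for more than one of these members. The highest of 10683 correlations over 15 libraries can be large by chance, so no link is read from these lists.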

How the data were processed

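The authors deposited, per gene and library, a count and an RPKM value. Per the file headers, the count is of uniquely aligning reads and the RPKM is adjusted by a size factor. The submitters' processing notes name GSNAP and GRCm38. Versions, the annotation and any use of strand are not given in those sources, so reads of overlapping genes cannot be told apart. Gene IDs were matched to symbols in RefSeq GRCm38.p6 (31049 of 36528, 85.0%). RPKM served only to compare levels between genes.

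Depth was 6413055 to 10328822 counts in vismodegib, 4887381 to 7158143 in Ki67-negative and 4929869 to 8359195 in Ki67-positive libraries. Ki67-negative library 5 had reads on 19669 genes, against 21653 to 23322 in the 14 others. Libraries with Xist above Ddx3y numbered 3, 1 and 1 of 5 in these groups. Between replicates, chi-square over its degrees of freedom was 13.24 to 43.32, where sampling noise alone gives 1. Replicates were numbered in accession order. No label ties libraries to animals, so p-values measure only the spread between libraries, which may be technical, and are too small where nests share an animal. Ki67-negative libraries were deposited under later accessions than the rest, and whatever came with that cannot be told apart from the group.

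One edgeR 4.0.16 quasi-likelihood fit (R 4.3.3, robust, TMM factors 0.937 to 1.05, filterByExpr with a minimum count of 10) took all 15 libraries, with 12 residual degrees of freedom and two-sided tests. Genes were called at a Benjamini-Hochberg adjusted p under 0.05 over 17282 genes. The fit was tested on simulated data. An SE is the log2 fold change over the square root of F. Intervals are 95% and use the SE with these degrees of freedom. CPM uses TMM-adjusted library sizes. Limits from a count of 0 use 3 reads and cover counting error only.

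The 8 members and the 15 lists (166 entries, all matched) were chosen with earlier results of these data known. Named genes are the members and, per list, up to 4 with the smallest adjusted p against either untreated group, plus set markers; not all are printed, and Runx1, Ptprz1, Itgb8, Tgfb1, Runx3, S100a8, H2-Eb1 and Smad7 were added after their values were seen. Alternatives were RLE scaling, DESeq2 1.42.0, limma 3.58.1 voom, no or a stricter filter (CPM of at least 1 in 5 libraries), the 2 groups alone, an Xist covariate and each library left out.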

Additional observations from a re-analysis of the deposited data

Results flagged for a closer look

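Of the 24 gene and group combinations, 4 held a library far from the other 4 of its group by Dixon's test, which flags about 1 in 20 by chance. Cd207 was 6.27 CPM in Ki67-positive library 5, against 0.119 to 1.84 CPM in the others. Csf1 was 31.6 CPM in Ki67-positive library 1, against 12.7 to 15.8 CPM in the others. Mfge8 was 114.8 CPM in vismodegib library 5, against 44.0 to 56.6 CPM in the others, and 25.6 CPM in Ki67-negative library 5, against 46.0 to 53.8 CPM in the others.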

How the results depend on the processing

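Cd207, Csf1r and Il34 kept their rise over both untreated groups in all 22 alternatives. Their log2 fold changes against Ki67-positive nests were 3.84 to 5.15 for Cd207, 1.72 to 2.09 for Csf1r and 1.0 to 1.38 for Il34, and against Ki67-negative nests 3.40 to 4.53, 1.60 to 2.08 and 1.19 to 1.58. The number of the 8 genes that passed was 3 to 5 against Ki67-positive and 3 to 4 against Ki67-negative nests when a library was left out, and 0 between the untreated groups. Only differences that did not pass reversed: Mfge8 against Ki67-positive nests when vismodegib library 5 (-0.15) or Ki67-positive library 2 (-0.01) was left out, Csf1 against Ki67-negative nests by limma voom (0.18) and without vismodegib library 3 (0.04) or Ki67-negative library 4 (0.51), and, in Ki67-negative over Ki67-positive nests, Csf1r when Ki67-positive library 2 (-0.04), Ki67-positive library 3 (-0.05) or Ki67-negative library 5 (-0.21) was left out and Cd207 without Ki67-negative library 5 (-0.02). With a library left out these ranged from -0.15 to 0.32 for Mfge8, -0.25 to 0.51 for Csf1, -0.21 to 0.33 for Csf1r and -0.02 to 1.47 for Cd207. Genes of all kinds passing between the untreated groups numbered 30, against 86 by DESeq2, 15 by limma voom, 0 with these groups alone and 0 to 43 with a library left out; 1154 had an unadjusted p under 0.05. The cause was not tested. Aif1 was filtered out when the untreated groups were fitted alone. No paired analysis was possible because the labels give no replicate numbers. Aif1 and untreated Cd207, at 0 to 50 reads per library, are limited by depth.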
